A study of Mus musculus with 8 samples.

Results

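Malat1, Neat1, Miat, Firre, Gas5, Tug1, Pvt1 and Snhg6 are 8 genes for long noncoding RNAs, transcripts that act as RNA or host smaller RNAs and are not translated into known proteins. They were taken by gene symbol, 8 of the 24421 genes in each count table, and all 8 passed the filter on low counts that left 15458 genes for testing. The sequenced RNA came from mouse embryonic stem cells whose genome is a cross (CAST/Ei x 129/Sv/Jae), so that reads over sequence differences between the strains can be given to the CAST or the 129 genome. The design crossed genotype with differentiation in 4 groups of 2 libraries: wild type (WT) cells and cells with the HNRNPK 6A mutation, each at day 0 and at day 14. HNRNPK is an RNA-binding protein with KH domains that prefer C-rich RNA, and it links Xist to Polycomb repression of the X chromosome. Which residues the 6A mutation changes, and whether the mutant line is a single clone, is not stated in the labels. Day 0 cells had been on irradiated mouse embryonic fibroblast feeders with LIF for 2 days and were separated from the feeders. Day 14 cells had been without LIF since then, 4 days in suspension as embryoid bodies and plated at day 5. The series text gives the late time as day 7, whereas the labels of the samples give day 14, which is used here. All 4 groups share the hybrid background, and the WT and 6A cells were grown and differentiated by the same protocol.

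Long noncoding RNAs of this set work in different places. Malat1 RNA sits in nuclear speckles, where splicing factors gather, and Neat1 RNA is the scaffold of paraspeckles, bodies built on it with RNA-binding proteins. Miat (also called Gomafu) is a nuclear RNA known from neural cells, and it carries repeats of the letters UACUAAC, the branch point sequence bound by splicing factor SF1. Gas5 and Snhg6 are hosts of small nucleolar RNAs (snoRNAs): the snoRNAs, which guide chemical modification of ribosomal RNA, are cut from their introns, and the spliced hosts are known as targets of nonsense-mediated decay. Pvt1 lies beside the growth regulator gene Myc, Tug1 is a widely transcribed lincRNA, and Firre is an X-linked nuclear RNA that binds HNRNPU and is known to be transcribed also from the inactive X chromosome.

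The sequences below show the features by which these RNAs are classed, with T for U. The Miat-205 transcript (9163 bases, GENCODE M21, GRCm38) held 6 copies of TACTAAC on the transcript strand, the only strand searched, and all of them lay in its exon 7. No other gene among 2180 whose longest transcript was of like length (within 1.5 times) held as many, and 18.6% of them held at least 1. The 6 copies are in capitals in the next 2 sequences, which come from chr5:112217309-112217460 and chr5:112216752-112216812, minus strand.
Miat, first stretch: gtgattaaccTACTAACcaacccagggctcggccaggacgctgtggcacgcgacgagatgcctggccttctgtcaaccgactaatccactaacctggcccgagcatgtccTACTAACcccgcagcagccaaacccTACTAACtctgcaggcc
Miat, second stretch: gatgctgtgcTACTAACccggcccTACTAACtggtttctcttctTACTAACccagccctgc
Gas5 and Snhg6 share a feature of translated growth genes, a start on C followed by pyrimidines (a 5′ terminal oligopyrimidine tract), in capitals below. The first 29 bases are those of Gas5-209 (chr1:161035166-161035194, plus strand) and Snhg6-203 (chr1:9944090-9944118, minus strand).
Gas5 5′ end: CTTTCggagctgtgcggcattctgagcag
Snhg6 5′ end: CTTTCTCggcagcgccgtagagcgcgagc
A start on C with at least 5 pyrimidines was annotated for 5 of 25 Gas5 transcripts and 1 of 5 Snhg6 transcripts. In the RefSeq promoter table (GRCm38), 2.49% of 27025 gene starts had one, the start of Miat among them. The snoRNA genes inside these hosts that have a row of their own in the count tables are Snord47 (chr1:161038082-161038158, plus strand) and Snord87 (chr1:9942463-9942549, minus strand), printed with box C (TGATGA) and box D (CTGA), the short motifs bound by the box C/D snoRNA proteins, in capitals.
Snord47: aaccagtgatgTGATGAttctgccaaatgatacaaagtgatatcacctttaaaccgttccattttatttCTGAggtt
Snord87: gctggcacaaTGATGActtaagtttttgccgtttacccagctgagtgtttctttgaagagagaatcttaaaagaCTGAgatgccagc
C-rich tetramers were counted in the longest transcript of each gene, on the transcript strand, with overlapping matches counted and TCCCC counted for both. Miat held 6.00 CCCC and 4.26 TCCC per kilobase, beside medians of 3.84 and 4.32 in genes of like length, of which all held both. Of these genes 77.1% held fewer CCCC per kilobase than Miat and 48.5% fewer TCCC. Firre held 6.12 and 4.32 (medians of 3.98 and 4.43 in genes of its length). Malat1 held 2.15 CCCC and 2.86 TCCC per kilobase (medians of 3.94 and 4.39), and Tug1 1.49 and 2.53 (3.98 and 4.41). These counts describe letters and say nothing of where HNRNPK binds.

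Libraries held between 8146684 and 15540163 counts. Hnrnpk itself was lower in 6A at both days (794 in WT and 533 in 6A at day 0, 485 and 366 at day 14, in CPM, the counts of a gene scaled to a common library size), and counts of the gene cannot show whether a library carries the mutation. Xist, the RNA of the inactive X chromosome, was between 54.6 and 73.1 CPM at day 0 and between 913 and 1158 at day 14. The 10 pluripotency markers summed to between 5237 and 5618 CPM at day 0. At day 14 they summed to 536 and 505 CPM in WT and to 706 and 691 in 6A. All 10 were lower at day 14 than at day 0 in both genotypes, as were 36.8% of tested genes in WT and 36.6% in 6A. At day 14, 5 of the 10 were higher in 6A than in WT and 0 lower (median log2 0.53). Other marker lists were followed beside the results. At day 14, 15 of 19 neural and 10 of 11 cardiac muscle markers were lower in 6A than in WT, 9 of 10 blood markers were higher, and of 9 endoderm and 11 fibroblast markers 2 and 2 were higher and 0 and 1 lower. Over all tested genes 8.31% were lower and 5.33% higher in 6A at that day. At day 0, 2 of the 11 fibroblast markers were higher in 6A, Lox (log2 0.63) and Postn (0.53), and 0 were lower, where 1.58% of tested genes were called. DESeq2 called 4 of the 11. The 6 Y-linked genes summed to 26.1 and 26.6 CPM (of total counts) in WT and 40.9 and 45.2 in 6A at day 0, a ratio of 1.63. In any library at day 14 they summed to at most 0.101. Nothing in the labels beyond the words biological replicates says how the libraries of a group were separated, so the p-values measure the spread between these libraries, which may be partly technical.

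The 8 RNAs spanned group means from 2.27 CPM (Miat in 6A at day 14) to 8695 CPM (Malat1 in WT at day 14), and the word abundant fits Malat1 first of all. By mean CPM Malat1 was the gene ranked 4 of 15458 in WT at day 0 and ranked 2 in the other groups. It took between 0.433% and 0.499% of all counts at day 0 and between 0.800% and 0.967% at day 14. Neat1 ranked between 152 and 618, Gas5 between 667 and 3096, Tug1 between 2486 and 3468, and Firre between 2611 and 3635. Pvt1 (6224 to 9696), Snhg6 (7267 to 9591) and Miat (4655 to 12936) were mid-range or low. On a scale per length, CPM per kilobase of all annotated exons, the order of the levels in WT at day 0 was Malat1 (699), Gas5 (76.9), Snhg6 (22.0), Neat1 (14.6), Firre (12.97), Tug1 (8.29), Pvt1 (4.96) and Miat (0.841). Neat1 and Firre were neighbours whose order turned with the length used: per kilobase of the longest transcript they had 14.6 and 19.3. In WT at day 14 the order on the exon scale became Malat1 (1245), Neat1 (24.6), Gas5 (21.4), Snhg6 (15.6), Tug1 (9.56), Firre (8.63), Miat (5.59) and Pvt1 (2.34), and with the longest transcript Gas5 (31.4) stood before Neat1.

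**Figure D1:**
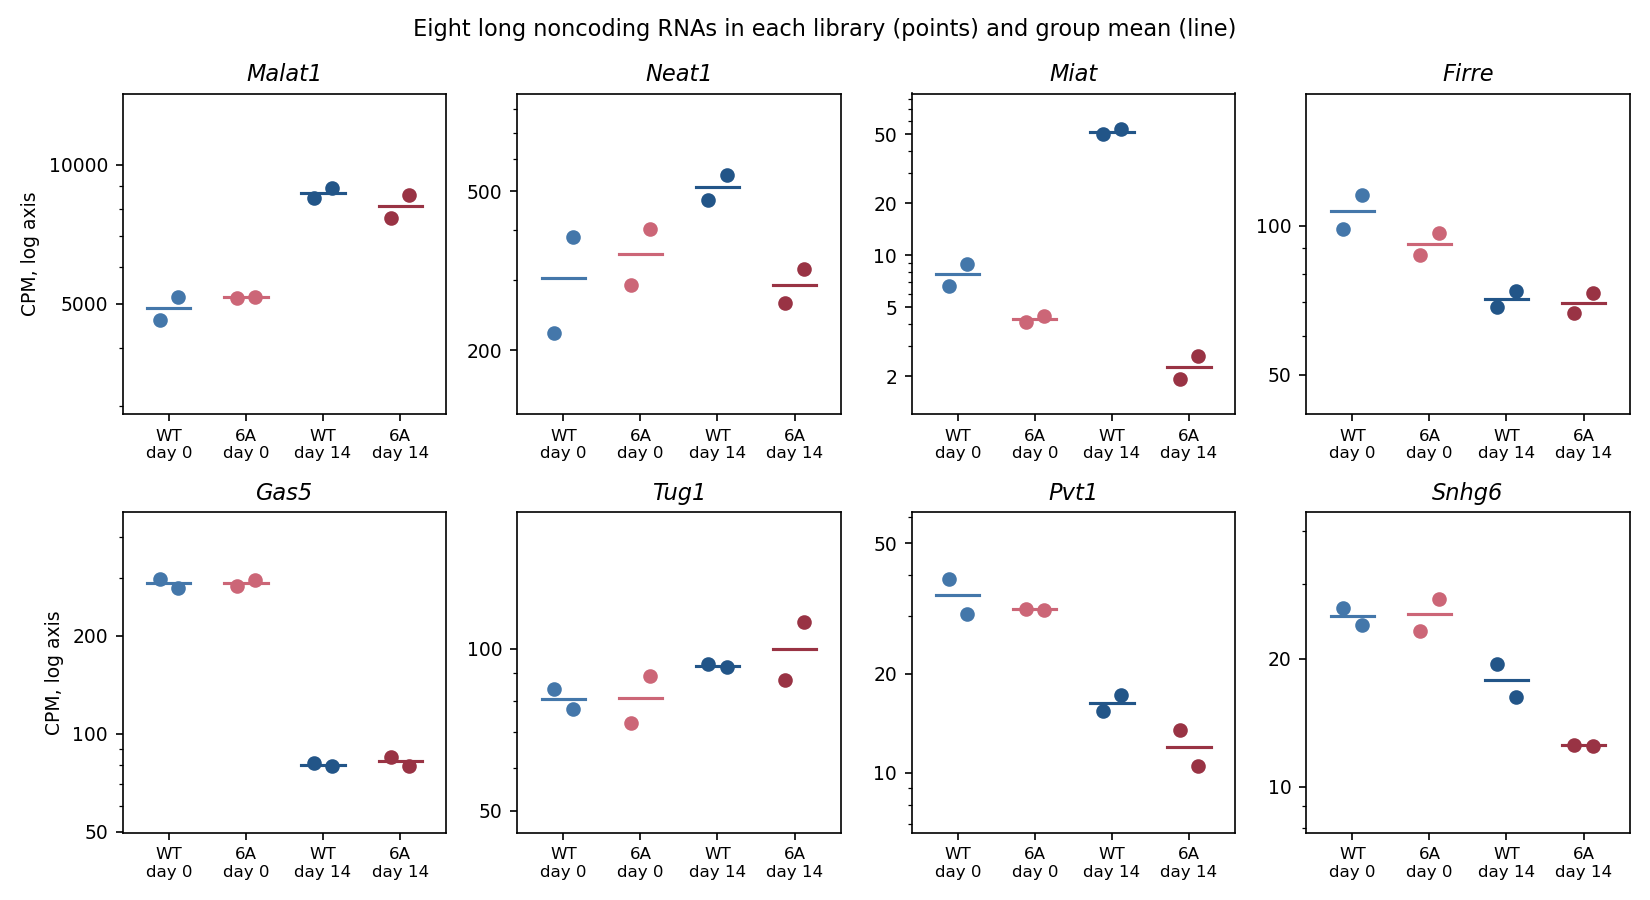
CPM of each of the 8 long noncoding RNAs (one panel each, log axis) in the 4 groups, with a point per library and a line at the group mean of 2 libraries. Miat stands at 50.1 and 53.9 CPM in WT at day 14 and at 1.93 and 2.61 in 6A, while Gas5 falls to about the same level in both genotypes (79.6 to 84.8 CPM).

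The first question was which of the 8 RNAs changed when the cells differentiated and which differed between genotypes. With differentiation the share of the 8 that was called was near that of all genes, and between genotypes Miat alone was called, at day 14. By edgeR's quasi-likelihood test with Benjamini-Hochberg adjustment over all tested genes, 3 of 8 rose from day 0 to day 14 in WT (Malat1, Neat1, Miat; 38.4% of all tested genes rose) and 4 fell (Firre, Gas5, Pvt1, Snhg6; 36.8% fell). In 6A 1 rose (Malat1; 35.4% of tested genes) and 5 fell (Miat, Firre, Gas5, Pvt1, Snhg6; 36.6%). Tug1 was called in neither genotype, and Neat1 was not called in 6A. None of the 8 was called between 6A and WT at day 0, where 1.58% of tested genes were called, and 1 of the 8 (Miat) had an unadjusted p under 0.05. DESeq2 also called none of them at day 0. At day 14 Miat alone was called lower in 6A (8.31% of tested genes were lower) and none was called higher (5.33%), where 13.6% were called in all. In the test of whether the change with time differed between genotypes, Miat alone was called, as lower (3.34% of tested genes, and 4.74% in either direction). The members' shares called with differentiation, 7 of 8 and 6 of 8, stood beside 75.2% and 71.9% of all genes. The median log2 fold change of the 8 was -0.15 in WT and -0.66 in 6A, against 0.04 and -0.03 over all tested genes. The comparisons share libraries: the WT day 14 pair enters both the change in WT and the genotype difference at day 14. For scale in what follows, the libraries of the 2 groups did not overlap in 45.6% of tested genes for 6A against WT at day 0, 56.7% at day 14, 86.3% between the days in WT and 86.9% in 6A. The count of 244 genes called at day 0 ran from 32 to 567 when 1 library was left out, moving by over 1.5 times for each of the 8 libraries, the count of 2109 at day 14 fell to between 982 and 1143 without any 1 of the day 14 libraries, and that of 733 for the difference between the time courses fell to as few as 280.

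**Figure D2:**
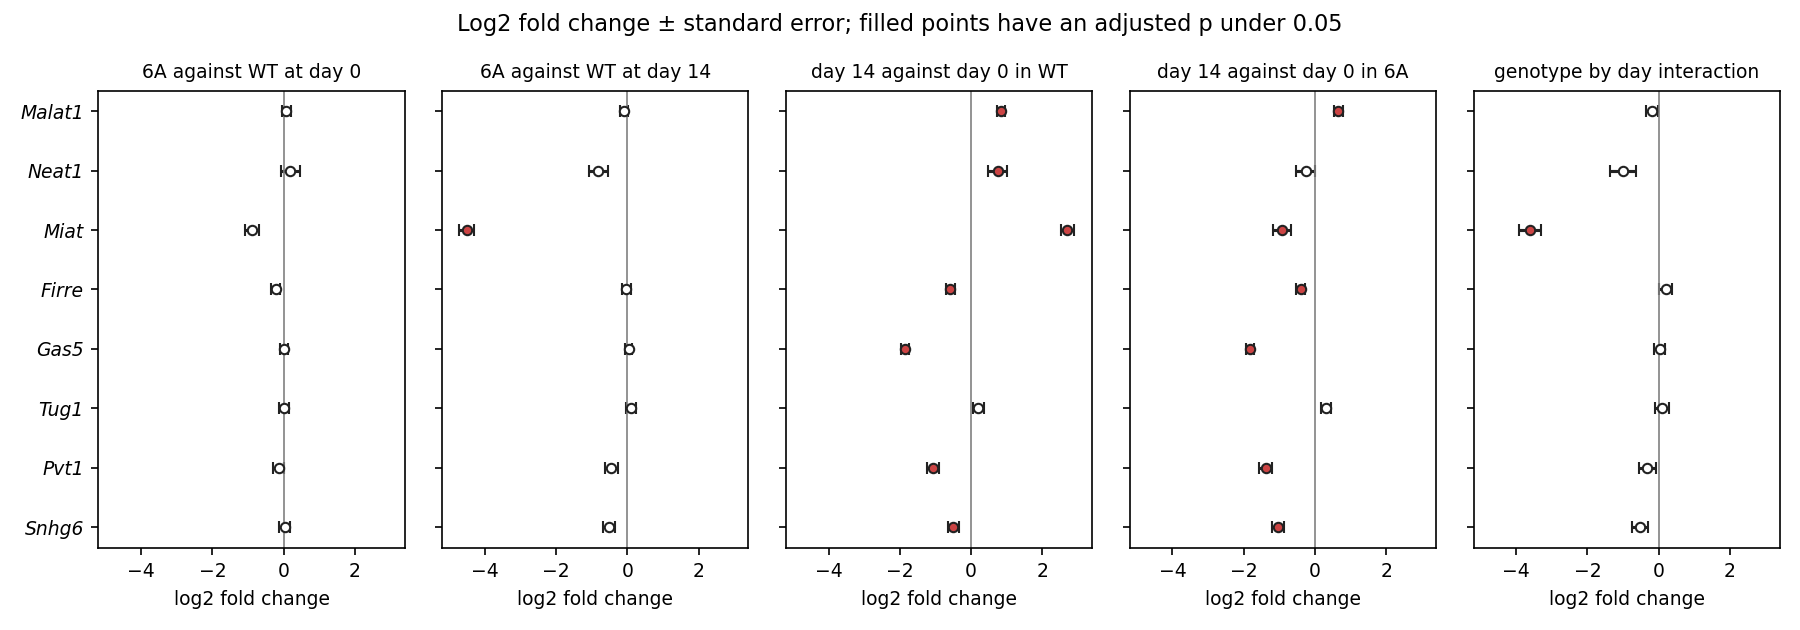
Log2 fold change (horizontal axis, with its standard error) of the 8 RNAs in the 5 comparisons, filled where the adjusted p was under 0.05. Miat lies at -4.51 for 6A against WT at day 14 and at 2.71 for day 14 against day 0 in WT, and no point is filled for 6A against WT at day 0.

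Miat had the largest genotype difference of the 8 RNAs at both days. It lies at chr5:112213228-112229395 on the minus strand (GRCm38, ENSMUSG00000097767.8, lincRNA). Its level was 6.66 and 8.97 CPM in the WT libraries at day 0, 4.10 and 4.47 in 6A at day 0, 50.1 and 53.9 in WT at day 14, and 1.93 and 2.61 in 6A at day 14. These rest on 54 to 127 counts per library at day 0, 432 and 681 in WT at day 14, and 20 and 27 in 6A at day 14. In no pair of groups did the libraries overlap, and the WT day 14 libraries were high by a wide margin. WT cells raised Miat 6.52-fold from day 0 to day 14 (log2 2.71 ± 0.18 SE, adjusted p = 1.08e-08). In 6A cells Miat fell by 0.92 ± 0.26 on the log2 scale (adjusted p = 0.00525), a call that ended when replicate 1 of 6A at day 14 was left out (adjusted p = 0.0593). At day 14 the level in 6A was 22.8-fold below that in WT (log2 -4.51 ± 0.21, adjusted p = 5.07e-08). The difference between the time courses was -3.63 ± 0.31 (adjusted p = 6.54e-05). At day 0 the difference was -0.89 ± 0.21 with an adjusted p of 0.0517, and it was called with RLE scaling (0.0485), with no filter on low counts (0.0168) or without replicate 1 of WT at day 0 (0.0204).

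Most neural marker genes were lower in 6A at day 14, as Miat was. The 19 neural markers summed to 637 and 643 CPM in WT and 564 and 561 in 6A at day 0, and to 843 and 875 in WT and 544 and 582 in 6A at day 14. A few genes weigh most in these sums. In WT at day 0 Stmn2 (215 CPM), Tubb3 (193) and Ncam1 (104) were the highest. At day 14 Ncam1 was the highest (467 CPM in WT and 429 in 6A) and was not called between genotypes. At day 14 15 of the 19 were lower in 6A and none higher, with a median log2 fold change of -2.75. Over all tested genes 8.31% were lower and 5.33% higher. At that day 0 markers were at 0 counts in the WT libraries and 1 in each 6A library. The 4 with the smallest adjusted p were Map2, a microtubule protein of neurons (-2.75), the transcription factor Zic1 (-3.67), the neuronal tubulin Tubb3 (-2.33) and the Notch target Hes5 (-7.90). Hes5 had 14.3 CPM in WT and 0.0483 in 6A, near 0 counts, so the size of its fold change is uncertain. With time, not all markers followed Miat. In WT 14 of the 19 rose and 3 fell (38.4% and 36.8% of tested genes), Tubb3 among the latter (193 to 55.8 CPM). In 6A 4 rose and 8 fell (35.4% and 36.6%). Cardiac muscle markers too were lower in 6A at day 14, 10 of the 11 (8.31% of tested genes). They summed to 1670 and 1852 CPM in WT and 435 and 407 in 6A. In the difference between the time courses 5 were called lower, against 9 of the 19 neural markers and 3.34% of tested genes. All 11 rose from day 0 to day 14 in WT. In 6A, where Miat fell, 9 of the 11 rose and 0 fell (median log2 2.68), and 35.4% of tested genes rose. In bulk RNA fewer cells of a type and less RNA per cell cannot be told apart, and the part of cell makeup in the Miat difference was not tested. The genes most like Miat over the 8 libraries, by the root mean square difference of centred log2 CPM among 13760 genes, were Lhx5 (0.29), Ncan (0.43) and Rfx4 (0.43). Lhx5, a LIM homeobox gene, had 0.503, 0.262, 3.93 and 0.145 CPM as means of WT and 6A at day 0 and of WT and 6A at day 14. It reached the mean of 1 CPM asked of compared genes only through WT at day 14. In 6A at day 14 Lhx5 and Rfx4 (0.145 CPM each) were near 0 counts, so their likeness to Miat there is uncertain. Ncan, which encodes the brain proteoglycan neurocan, had 6.00, 3.62, 23.3 and 1.45 CPM in the same order.

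Among 26 other tested long noncoding RNAs of a list of 35, 6 were lower in 6A at day 14 and none higher. The list was chosen with earlier results of these data known. Over all tested genes 8.31% were lower and 5.33% higher. The median log2 fold change of the 26 was -0.12. The 4 with the smallest adjusted p were Six3os1, transcribed beside the eye and forebrain gene Six3 (16.3 CPM in WT and 0.0483 in 6A), Rmst, known from neurogenesis (15.8 and 0.145), Dlx6os1, antisense to the Dlx6 gene (5.83 and 0.386), and Pantr1, beside Pou3f3 (2.59 CPM in WT, at 0 counts in both 6A libraries). The 6A values of Six3os1, Rmst and Dlx6os1 were near 0 counts as well, so how far these genes lay below WT is uncertain. The other 2 were Sox2ot, which overlaps Sox2, and Crnde, both named after their values were seen. At day 0 edgeR called only Tsx of this list, higher in 6A (2.54 and 6.60 CPM), where 1.58% of tested genes were called. DESeq2 called 0 of the 26 at day 0 and 4 at day 14. From day 0 to day 14, 17 of the 26 rose and 4 fell in WT (38.4% and 36.8% of tested genes). In 6A 12 rose and 6 fell (35.4% and 36.6%). In the difference between the time courses 3 were called lower (Sox2ot, Six3os1 and Airn), as were 3.34% of tested genes.

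Malat1 and Neat1 are neighbours on chromosome 19 (chr19:5795690-5802672 and chr19:5824708-5845478, both minus strand, lincRNA, ENSMUSG00000092341.3 and ENSMUSG00000092274.3). Malat1 stood at 4604 and 5152 CPM in WT and 5133 and 5177 in 6A at day 0, and at 8480 and 8909 in WT and 7662 and 8588 in 6A at day 14. All day 14 libraries were above all day 0 libraries, and the genotypes overlapped at both days. The rise was 1.78-fold in WT (log2 0.83 ± 0.12, adjusted p = 2.37e-05) and 1.58-fold in 6A (0.66 ± 0.12, adjusted p = 0.000222). Between genotypes the log2 difference was 0.08 at day 0 (95% interval -0.18 to 0.34) and -0.10 at day 14 (-0.35 to 0.16). The genes most like Malat1 over the 8 libraries were Yeats2 (root mean square difference 0.04), Tnks (0.04) and Fam20b (0.06).

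Neat1 varied more between the libraries of a group at day 0 than any other of the 8 RNAs. Its level was 222 and 385 CPM in WT and 292 and 403 in 6A, so the groups overlapped and the 2 WT libraries differed 1.74-fold. By day 14 the values were 476 and 548 CPM in WT and 263 and 320 in 6A, with no overlap. Neat1 rose in WT (log2 0.75 ± 0.27, adjusted p = 0.0321), and that call ended without replicate 1 of WT at day 0 (0.40, adjusted p = 0.0866), without replicate 2 of WT at day 14 (0.65, 0.130) and with no filter on low counts (0.73, 0.100). In 6A the change was -0.25 ± 0.26 (adjusted p = 0.414). The genotype difference at day 14, -0.81 ± 0.27, missed the threshold in the fit over all groups (adjusted p = 0.0926, unadjusted p = 0.0168), and it was called by DESeq2 (0.00452), in a fit of the day 14 groups alone (6.43e-05) and without either WT library of day 0 (0.00612 and 0.00645). The difference between the time courses was -1.01 ± 0.37 (adjusted p = 0.204; 0.0379 by DESeq2 and 0.0121 without replicate 2 of WT at day 0). Set against Malat1 in the same library, Neat1 gave 0.0481 and 0.0747 counts per Malat1 count in WT and 0.0569 and 0.0778 in 6A at day 0. At day 14 the ratio was 0.0561 and 0.0615 in WT and 0.0343 and 0.0373 in 6A, lower in both 6A libraries than in every other library. Gabrb2, Aldh5a1 and Mecom were the genes most like Neat1 (0.17, 0.18 and 0.18).

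Genes for proteins of paraspeckles and nuclear speckles were followed beside the 2 RNAs, where 36.8% of all tested genes fell in WT and 36.6% in 6A. Of 14 paraspeckle proteins 13 fell and 1 rose in WT, and the same counts held in 6A, with medians of -0.71 and -0.64. Rbm14, a coactivator needed for paraspeckle assembly, went from 214 to 73.4 CPM in WT (log2 -1.54 ± 0.11), Nono from 607 to 261 (-1.22 ± 0.11) and Tardbp from 467 to 285 (-0.71 ± 0.11). Hnrnph3 was the 1 that rose (16.7 to 45.8 CPM, 1.44 ± 0.17). Between genotypes Hnrnpk was lower in 6A at day 0 (-0.58 ± 0.12, adjusted p = 0.0400), and Hnrnph3 (-0.88 ± 0.16, adjusted p = 0.00249) and Hnrnpk (-0.40 ± 0.12, adjusted p = 0.0434) were lower at day 14. Of 13 nuclear speckle proteins 9 fell in WT and 8 in 6A and none rose, with medians of -0.60 and -0.66. The splicing factors Srsf2 (722 to 182 CPM in WT) and Srsf1 (743 to 257) had the smallest adjusted p. These 2 were also the speckle proteins higher in 6A at day 14, at 242 and 337 CPM (log2 0.41 ± 0.12 and 0.39 ± 0.11). No gene of either list was called by edgeR in the difference between the time courses, where 1 of each list had an unadjusted p under 0.05 and DESeq2 called 0 of the paraspeckle and 1 of the speckle proteins.

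Gas5 and Snhg6, both on chromosome 1, are the snoRNA hosts of the set. Gas5 (chr1:161034422-161038539, plus strand, processed transcript, ENSMUSG00000053332.13) has 10 annotated snoRNA genes inside it, and Snhg6 (chr1:9941959-9944118, minus strand, lincRNA, ENSMUSG00000098234.7) has 1. Gas5 was 299 and 279 CPM in WT and 284 and 297 in 6A at day 0, and 81.1 and 79.6 in WT and 84.8 and 79.7 in 6A at day 14. Day 0 and day 14 libraries did not overlap and the genotypes did at both days. Gas5 fell 3.598-fold in WT (log2 -1.85 ± 0.11, adjusted p = 3.81e-09) and 3.53-fold in 6A (-1.82 ± 0.11, adjusted p = 5.46e-09), and the difference between these was 0.03 (95% interval -0.30 to 0.36). Its 3 most like genes were Eed, a Polycomb subunit (0.06), Nfu1 (0.07) and the replication helicase subunit Mcm6 (0.08).

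Snhg6 was lower and fell less. Its level was 26.4 and 24.0 CPM in WT and 23.3 and 27.8 in 6A at day 0, and 19.5 and 16.3 in WT and 12.6 and 12.5 in 6A at day 14. The 6A libraries of day 14 were the lowest and did not overlap with any other group. The fall was 0.50 ± 0.16 on the log2 scale in WT (1.41-fold, adjusted p = 0.0113, and 0.114 without replicate 2 of WT at day 14) and 1.03 ± 0.16 in 6A (2.05-fold, adjusted p = 5.70e-05). Between genotypes at day 14 Snhg6 differed by -0.51 ± 0.17, which missed the threshold (adjusted p = 0.0602) and passed it in a fit of the day 14 groups alone (0.0407) and without either WT library of day 0 (0.0472 and 0.0468). The ratio of Gas5 to Snhg6 counts went from between 10.7 and 12.2 at day 0 to 4.17 and 4.88 in WT and 6.75 and 6.40 in 6A at day 14. Pxylp1, Dsg2 and Acss2 were the genes most like Snhg6 (0.09, 0.11 and 0.11).

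**Figure D3:**
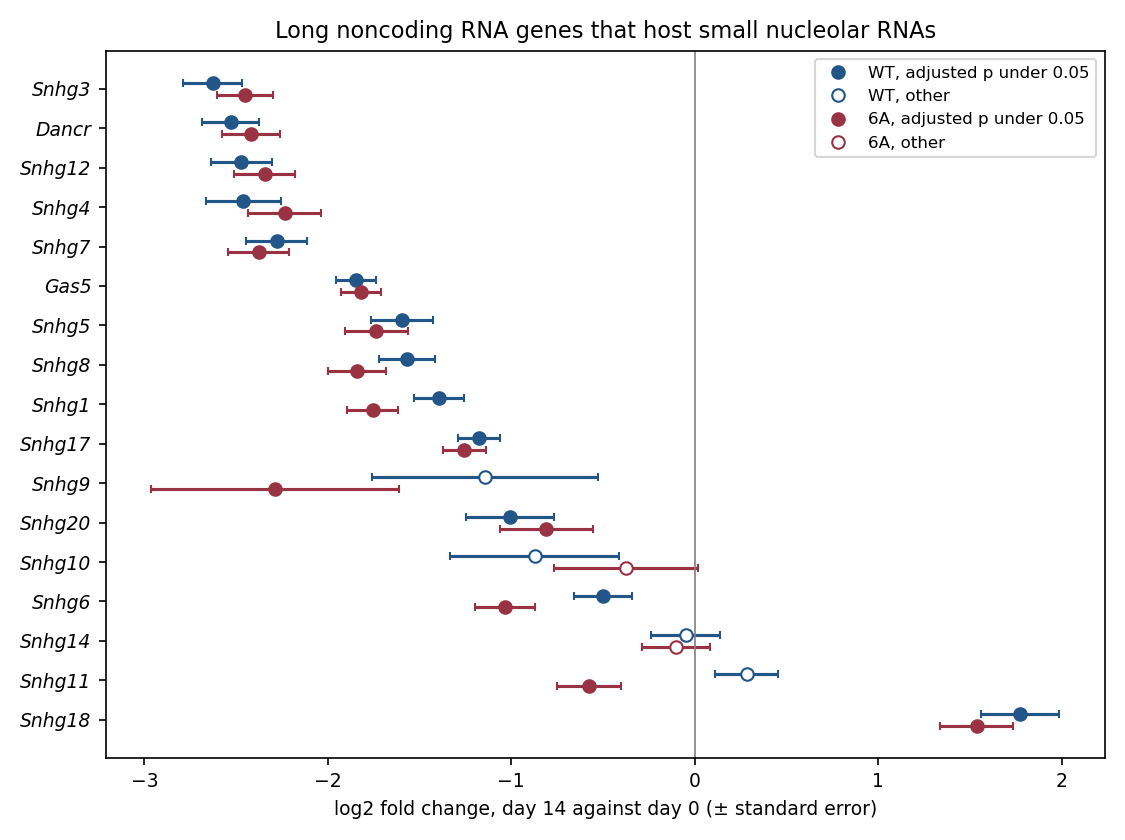
Log2 fold change from day 0 to day 14 (horizontal axis, with its standard error) of the 17 tested long noncoding RNA genes that host snoRNAs, in WT (blue) and 6A (red), filled where the adjusted p was under 0.05. Gas5 lies at -1.85 and -1.82 and Snhg6 at -0.50 and -1.03, and Snhg18 is the only gene to the right of 0 in both genotypes.

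Most snoRNA host genes fell as Gas5 and Snhg6 did. Of 17 tested from a list of 21, which holds both, 12 fell and 1 rose in WT (median -1.39) and 14 fell and 1 rose in 6A (median -1.75). The 4 with the smallest adjusted p in WT were Gas5, Snhg3 (64.6 to 10.4 CPM, log2 -2.63 ± 0.16), Dancr (54.5 to 9.45, -2.53 ± 0.16) and Snhg12 (73.4 to 13.3, -2.47 ± 0.17). Snhg18, named after its values were seen, was the 1 that rose in each genotype (1.77 and 1.54). None of the 17 was called by edgeR or DESeq2 between genotypes at either day or in the difference between the time courses, with 1, 3 and 2 of them at an unadjusted p under 0.05. At day 0 the smallest adjusted p among them was 0.230 (Snhg20), at day 14 it was 0.0602 (Snhg6), and for the difference between the time courses it was 0.0641 (Snhg11). The snoRNAs printed above fell with their hosts: Snord47 went from 5.43 and 2.61 CPM in WT at day 0 to 1.74 and 1.03 at day 14 (log2 -1.51 ± 0.41, adjusted p = 0.00427) and by -1.80 ± 0.36 in 6A. Snord87 went from 5.92 and 4.87 CPM to 1.28 and 1.27 in WT (-2.06 ± 0.32, adjusted p = 5.06e-05) and by -2.24 ± 0.36 in 6A. Rows of 6 to 105 counts lie behind these values, and whether a read of the host's intron or unspliced RNA was given to the snoRNA row is not stated. Of 10 nonsense-mediated decay factors 8 fell and 2 were not called in WT, and 6 fell and 4 were not called in 6A, where 36.8% and 36.6% of all tested genes fell. The falls were led by Smg5 (329 to 95.4 CPM in WT) and Smg9 (56.8 to 16.3). Of 77 cytosolic ribosomal protein genes, which begin with the same kind of pyrimidine tract, 71 fell in WT and 65 in 6A, with medians of -0.85 and -0.72. Between genotypes neither edgeR nor DESeq2 called a decay factor (1 at day 0 and 0 at day 14 had an unadjusted p under 0.05) or a ribosomal protein gene (9 and 8).

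Pvt1 (chr15:62037986-62378096, plus strand, lincRNA, ENSMUSG00000097039.8) fell in both genotypes. The level was 38.9 and 30.5 CPM in WT and 31.5 and 31.4 in 6A at day 0, and 15.4 and 17.3 in WT and 13.5 and 10.5 in 6A at day 14. The days did not overlap, and at day 14 neither did the genotypes. The fall was 2.10-fold in WT (log2 -1.07 ± 0.17, adjusted p = 5.49e-05) and 2.61-fold in 6A (-1.39 ± 0.17, adjusted p = 6.68e-06). At day 14 the genotype difference was -0.45 ± 0.18 (95% interval -0.84 to -0.06 without adjustment, adjusted p = 0.124). Its neighbour Myc fell as well, from 112 and 132 CPM to 36.2 and 37.1 in WT (-1.74 ± 0.13) and from 105 and 98.5 to 35.8 and 38.3 in 6A (-1.46 ± 0.13). Per Myc count there were 0.347 and 0.232 Pvt1 counts in WT at day 0 and 0.426 and 0.467 at day 14, and 0.300 and 0.319 in 6A at day 0 and 0.377 and 0.275 at day 14. Of the 4 Myc family genes, Mycn was lower in 6A at day 0 (487 and 336 CPM, adjusted p = 0.0475) and Mycl at day 14 (36.3 and 13.7 CPM, adjusted p = 2.83e-05), while Myc and its partner Max were called at neither day. All 4 fell in 6A (36.6% of tested genes fell), and in WT 3 fell (36.8%) and Mycl rose (0.35 ± 0.14; 38.4%). Pex11a, Plekhb1 and the snoRNA Snord104 were most like Pvt1 (0.10, 0.11 and 0.12).

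Tug1 (chr11:3639785-3649673, minus strand, annotated as antisense, ENSMUSG00000056579.18) was the only one of the 8 RNAs called in no comparison of the fit over all groups. Its level was 84.0 and 77.3 CPM in WT and 72.9 and 89.1 in 6A at day 0, and 93.5 and 92.5 in WT and 87.7 and 112 in 6A at day 14. The genotypes overlapped at both days, and the 6A libraries of day 0 and day 14 overlapped as well. The log2 change with differentiation was 0.21 in WT (95% interval -0.10 to 0.51, adjusted p = 0.198) and 0.30 in 6A (0.00 to 0.60, adjusted p = 0.0676). The latter passed the threshold with RLE scaling (0.38, adjusted p = 0.0255), by DESeq2 (0.38, 0.0343), with no filter on low counts (0.35, 0.0274), in a fit of the 6A groups alone (0.36, 0.0484), and without replicate 2 of 6A at day 0 (0.45, 0.0360) or replicate 1 of 6A at day 14 (0.47, 0.0203). The genotype differences, 0.01 at day 0 and 0.10 at day 14, had intervals of -0.29 to 0.31 and -0.20 to 0.41. Ostm1, Ube4a and Pibf1 were most like it (0.06, 0.06 and 0.07).

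Overlapping genes limit 4 of these readings, since the kit keeps the strand of a read but whether the counting used it is not stated. Tug1 overlaps Morc2a on the other strand, which fell (231 to 109 CPM in WT) where Tug1 did not. Gas5 overlaps Zbtb37 on the other strand, which rose (17.3 to 34.0 CPM in WT) where Gas5 fell. Snhg6 overlaps Mcmdc2 and Pvt1 overlaps H2afy3, both antisense and at most at 2.13 CPM as a group mean. Malat1 and Miat have antisense predicted genes (Gm37376 and Gm26953) not among the rows of the tables, and Firre overlaps no annotated gene.

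Firre is the X-linked member (chrX:50555744-50635321, minus strand, processed transcript, ENSMUSG00000085396.7), and its reads were split by allele. In all reads its level was 98.6 and 115 CPM in WT and 87.0 and 96.7 in 6A at day 0, and 68.5 and 73.8 in WT and 66.6 and 73.0 in 6A at day 14. The days did not overlap, and the genotypes overlapped at day 14 and not at day 0. Firre fell by 0.59 ± 0.12 on the log2 scale in WT (adjusted p = 0.000691) and by 0.40 ± 0.12 in 6A (adjusted p = 0.0110, with 0.0505 by DESeq2, 0.0986 without replicate 2 of 6A at day 0 and 0.0903 without replicate 1 of 6A at day 14). The genotype difference was -0.22 ± 0.12 at day 0 (adjusted p = 0.390) and -0.03 ± 0.13 at day 14 (0.921). Zfp330, Pik3r4 and Zbtb9, all autosomal, were most like it (0.03, 0.06 and 0.06).

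The fall of Firre was in the reads of the 129 allele, taken to be those in the columns named mus. Between 41.1% and 48.6% of its counts could be given to an allele, 263 to 794 reads per library. The 129 share of these was 62.2% and 58.8% in WT and 63.5% and 65.8% in 6A at day 0, and 31.6% and 31.7% in WT and 37.0% and 33.1% in 6A at day 14. Every day 14 library was below every day 0 library. Reads of the 129 allele went from 29.1 ± 5.52 (SD, n = 2) to 10.03 ± 0.578 CPM in WT and from 27.9 ± 3.47 to 11.2 ± 0.344 in 6A. Those of the CAST allele were 19.2 ± 5.51 and 21.7 ± 1.13 CPM in WT and 15.2 ± 0.801 and 20.7 ± 1.84 in 6A at day 0 and day 14. The log2 ratio of 129 to CAST reads fell by 1.70 ± 0.22 in WT (edgeR, adjusted p = 1.36e-13) and by 1.77 ± 0.21 in 6A (adjusted p = 4.43e-15), where 7.64% and 9.09% of the 12575 genes tested for alleles fell. Between genotypes the ratio differed by 0.28 ± 0.20 at day 0 (adjusted p = 0.961) and 0.22 ± 0.23 at day 14, and the time courses differed by -0.06 ± 0.31 (adjusted p = 1 for both), where 0.167%, 0.0398% and 0% of genes were called. For the last of these 514 genes had an unadjusted p under 0.05.

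**Figure D4:**
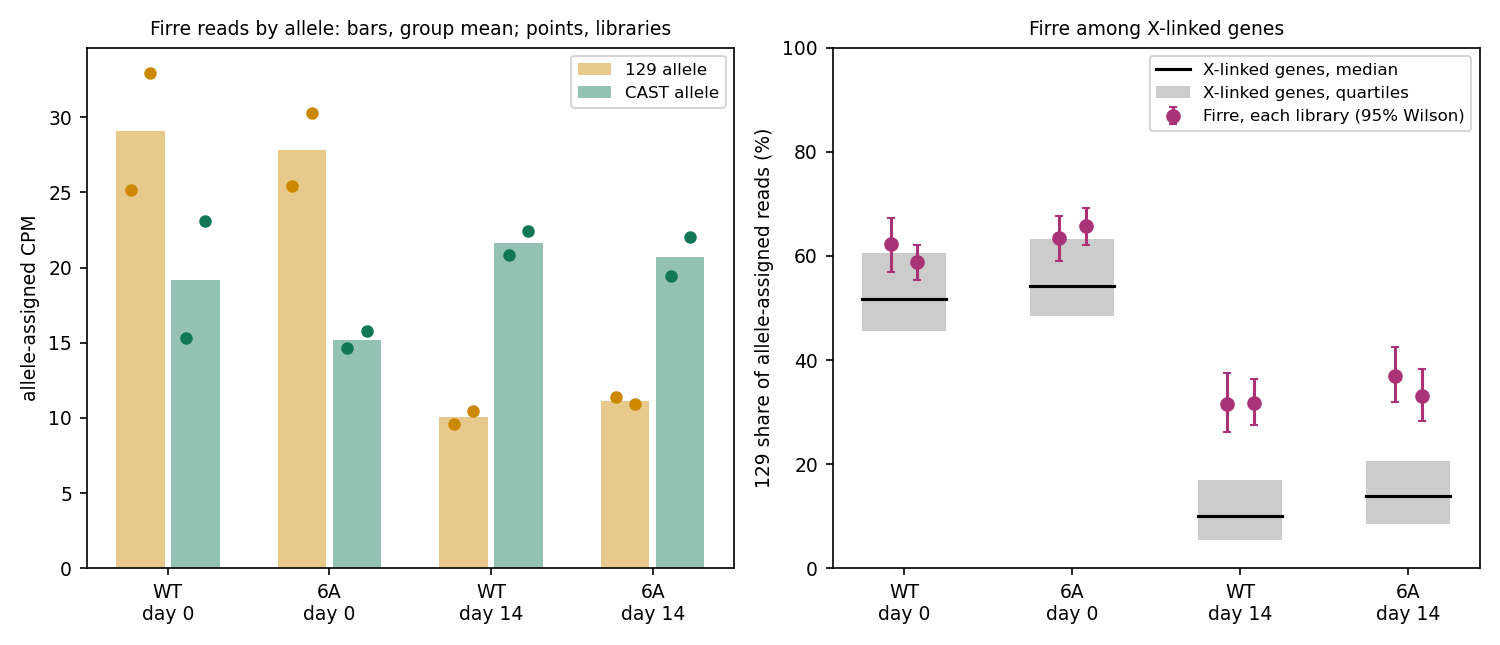
Left, allele-assigned CPM of Firre by group, with bars at the mean of 2 libraries and a point per library. Right, its 129 share in each library with the 95% Wilson interval, over the median and quartiles of X-linked genes. The 129 bars fall from 29.1 and 27.9 CPM at day 0 to 10.03 and 11.2 at day 14, and the Firre share stays above the X-linked quartiles at day 14.

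Set among X-linked genes, Firre kept a larger share of 129 reads at day 14 than most. The median 129 share over X-linked genes averaging 20 or more allele reads per library went from 51.7% to 9.94% in WT (377 and 379 genes) and from 54.2% to 13.8% in 6A. Firre was above 74.5% of these genes in WT and 78.5% in 6A at day 0, and above 87.9% and 88.9% at day 14. Of 432 X-linked genes tested for alleles, 74.1% changed in WT and 76.9% in 6A, with median log2 differences of -3.14 and -2.76, beside -1.70 and -1.77 for Firre. Of 12 genes listed as known to be transcribed from the inactive X, Firre among them, 9 fell in 129 share in each genotype and none rose. The 4 with the smallest adjusted p in WT were the RNA helicase gene Ddx3x (52.5% to 23.8% 129), Firre, the histone demethylase gene Kdm5c (56.0% to 38.3%) and the ubiquitin ligase gene Mid1 (43.5% to 2.85%). By group mean in WT at day 14, Utp14a (39.1%), Kdm6a (38.7%), Kdm5c, Jpx (36.2%, 45 allele reads) and Xist (97.4%) were above Firre (31.6%). Ddx3x, Eif2s3x, Ftx, 5530601H04Rik, Pbdc1 and Mid1 were below it. In 6A at day 14 the same genes lay on each side of Firre. The tested genes within 1 Mb of Firre were Igsf1, Stk26 and Hs6st2, at 7.69%, 5.28% and 3.58% 129 in WT and 9.92%, 3.27% and 6.13% in 6A at day 14. They were already below the X-linked median at day 0, at 19.3%, 24.3% and 18.0% in WT and 34.4%, 31.8% and 6.90% in 6A, when Firre was above it. Igsf1 rests on 26 to 32 allele reads per group, and the others on 60 to 119 at day 0 and 184 to 336 at day 14. For Stk26, a kinase gene, the log2 ratio changed by -2.30 ± 0.74 in WT and -3.85 ± 0.65 in 6A, both called. In total counts the 12 listed genes went both ways, with 7 falling and 3 rising in WT and 8 and 3 in 6A, Xist among those that rose. Over all tested genes 36.8% fell and 38.4% rose in WT, and 36.6% fell and 35.4% rose in 6A. Of 6 genes for proteins tied to Firre or to X chromosome structure, 3 fell in WT and 4 in 6A, among them Hnrnpu (-1.03 ± 0.11) and Ctcf (-0.93 ± 0.14) in WT, and between genotypes edgeR and DESeq2 called none, with 0 at an unadjusted p under 0.05.

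**Figure D5:**
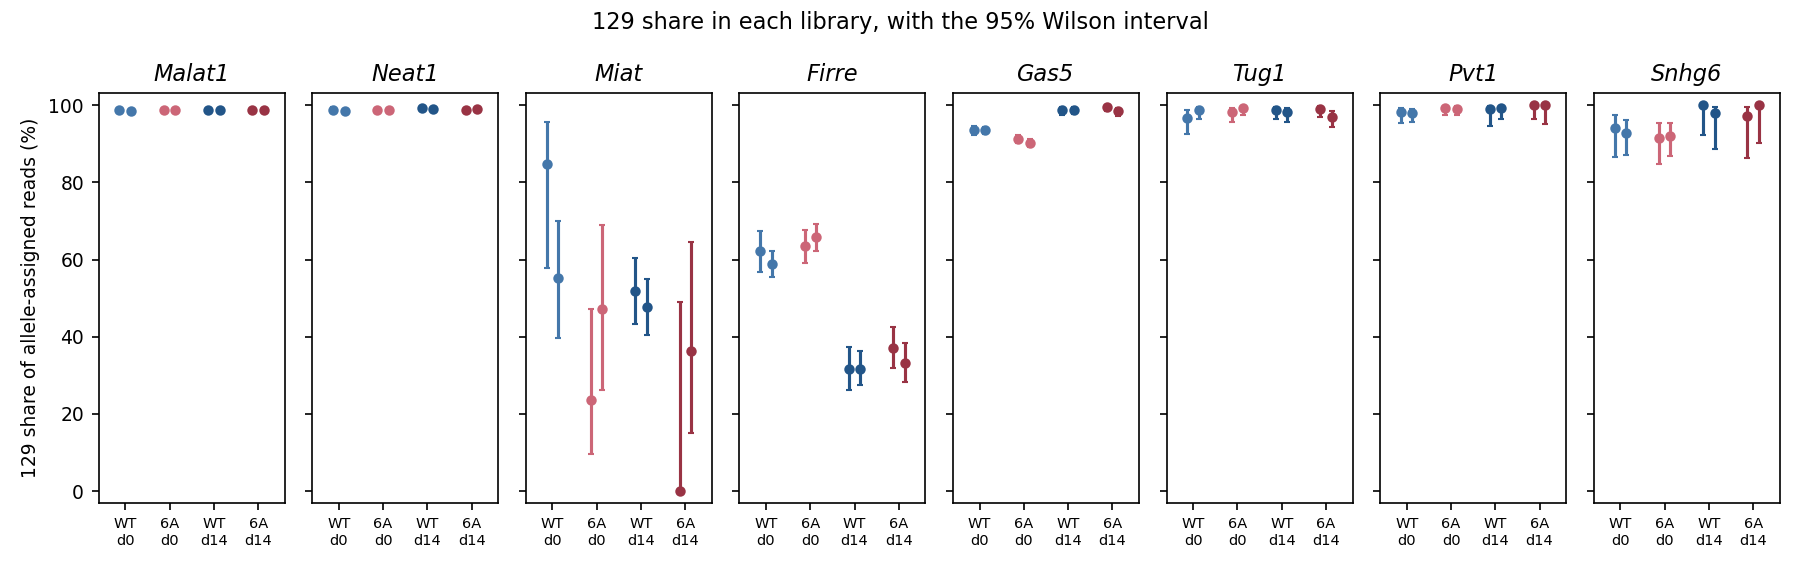
Share of allele-assigned reads given to the 129 genome for the 8 RNAs, a point per library with its 95% Wilson interval. Malat1, Neat1, Tug1 and Pvt1 lie at 96.8% or more in every library, Firre drops from day 0 to day 14, and Gas5 rises from between 90.3% and 93.5% to between 98.4% and 99.4%.

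The autosomal members were read by allele for comparison, and most gave almost no CAST reads. The 129 share was 98.6% to 98.9% for Malat1, 98.6% to 99.2% for Neat1, 96.8% to 99.1% for Tug1 and 98.0% to 100% for Pvt1 over the 8 libraries. Their neighbours were the same: at day 14 all 60 genes within 1 Mb of Malat1, all 60 of Neat1, all 10 of Gas5, all 8 of Snhg6, the 1 near Pvt1 and 20 of 22 near Tug1 were over 90% 129, and so were 66.0% of 10694 autosomal genes averaging 20 or more allele reads. Miat lies on chromosome 5, where 22.5% of genes were over 90%, and none of its 10 neighbours was. Miat had 51.9% and 47.8% 129 reads in WT at day 14 (129 and 178 allele reads), so both alleles gave reads, and the other groups held 4 to 38 allele reads per library, too few to compare.

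Gas5 was the one autosomal member whose allele ratio was called as changed. Its 129 share was 93.5% and 93.5% in WT and 91.3% and 90.3% in 6A at day 0, and 98.7% and 98.8% in WT and 99.4% and 98.4% in 6A at day 14. Reads given to CAST went from 14.6 ± 0.285 to 0.762 ± 0.0705 CPM in WT and from 20.6 ± 1.29 to 0.676 ± 0.409 in 6A (SD, n = 2), against 209 to 62.0 and 203 to 64.2 CPM for 129. The CAST values at day 14 rest on 7 and 9 reads in the WT libraries and 4 and 10 in those of 6A. At day 14 the 10 neighbours of Gas5 were at 97.0% to 99.8% 129, and 97.7% of chromosome 1 genes were over 90%. Whether a CAST copy of Gas5 in these cells gave the day 0 reads was not tested. The log2 ratio rose by 2.50 ± 0.34 in WT (adjusted p = 2.24e-12) and by 3.25 ± 0.33 in 6A (adjusted p = 7.34e-22), where 8.68% and 10.2% of genes tested for alleles rose. At day 0 the ratio in 6A differed from WT by -0.54 ± 0.18 (adjusted p = 0.273). Snhg6, on the same chromosome, had 91.4% to 94.0% at day 0 and 97.3% to 100% at day 14 from at most 1 CAST read per day 14 library, and its differences of 2.47 and 2.41 were not called (adjusted p = 0.208 and 0.191). The sum of Y-linked counts moved with these CAST reads, at a ratio of 1.63 between 6A and WT at day 0 and near 0 at day 14, and its part in the Gas5 result was not tested.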

How the data were processed

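RNA-seq of 8 libraries (4 groups of 2) was analysed from count tables. Per the labels' protocols, ribosomal RNA was removed from total RNA before a directional library kit and paired-end sequencing at 150 bases. The submitters' processing notes name cutadapt 1.4.2, STAR 2.7.10a and mm10, and the counter, its strand setting, the annotation and the way reads were given to alleles are not stated there or in the labels. Each deposited file holds raw counts per gene of all reads and of reads given to the CAST and 129 genomes. Totals of 8146684 to 15540163 counts per library set the precision, a count of 0 allows up to 3 counts (0.193 to 0.368 CPM of total counts), and intervals of shares (Wilson, 95%) cover counting error only.

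Genes were kept with filterByExpr, scaled by TMM and fitted with edgeR 4.0.16 (R 4.3.3) quasi-likelihood models (robust, 1 coefficient per group, all 8 libraries sharing the spread), with Benjamini-Hochberg adjustment over 15458 genes and a threshold of 0.05. CPM, also those of alleles, use the TMM library sizes. Allele ratios were fitted in edgeR with a term per library and an allele by group term, for the 12575 genes averaging 10 or more allele reads. The intervals of log2 differences are 95% and unadjusted. Both fits were tested on simulated data. Alternatives were RLE scaling, no filter, DESeq2 1.42.0, a replicate block, fits of the compared groups alone, each library left out, and, for alleles, at least 50 reads and a non-robust fit. Gene coordinates, transcripts and overlaps are from GENCODE M21 and promoters from RefSeq (both GRCm38), where 5 of the 8 genes had an entry and Neat1, Pvt1 and Snhg6 had none. Likeness used log2 CPM with a prior count of 2 and genes averaging 1 CPM or more, passing over predicted genes. The 8 RNAs, the gene lists and the marker lists were chosen with earlier results of these data known. The text names all 8 RNAs in each comparison, up to 4 genes of a list by smallest adjusted p, the 3 genes most like each RNA, Hnrnpk, Xist, and tested genes within 1 Mb of Firre. Figures were drawn with matplotlib 3.10.9.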

Additional observations from a re-analysis of the deposited data

Results flagged for a closer look

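The change of Miat from day 0 to day 14 differed between the genotypes by -3.625 on the log2 scale (edgeR, adjusted p = 6.54e-05), with a log2 change of 2.71 in WT, where both day 14 libraries were above both day 0 libraries, and of -0.92 in 6A, where both were below. It was the only 1 of the 8 RNAs for which that difference passed the test, where 4.74% of all tested genes did. Most neural and cardiac muscle markers were lower in 6A at day 14 as well (15 of 19 and 10 of 11), where 8.31% of tested genes were. From day 0 to day 14 in 6A, where Miat fell, 4 neural markers rose and 8 fell, and 9 cardiac muscle markers rose and 0 fell. Over all tested genes 35.4% rose and 36.6% fell in 6A. The part of these markers in the Miat difference was not tested.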

How the results depend on the processing

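Of 655 recomputed values for the 8 RNAs, 590 kept their direction and side of the threshold, 22 passed it only under the alternative, 8 no longer passed it and 35 turned direction, all 35 for differences that were not called. The number of genes called at day 0 (244) was 459 with no filter on low counts, 466 with a replicate block and 23 in a fit of the day 0 groups alone, and the cause was not tested. The replicate numbers gave correlations of 0.00422 to 0.238 between groups, the labels do not say that they pair libraries, and the block called Miat at day 0 (0.0304), Neat1 at day 14 (0.000885) and in the difference between the time courses (0.00537), and Tug1 in 6A (0.0434), changing no other call of the 8 RNAs. Turned values at day 0 were -0.0119 (RLE), -0.0127 (no filter), -0.0116 (DESeq2) and -0.0154 (day 0 groups alone) for Gas5, and -0.00931, -0.0104, -0.00968 and -0.0138 for Tug1. At day 14 Firre gave 0.00761 (RLE), 0.0264 (no filter) and 0.0075 (DESeq2). With each library left out in turn, genes called ran from 32 to 567 at day 0, 982 to 2759 at day 14 and 280 to 835 for the difference between the time courses, and genes called for allele ratio from 2 to 33 at day 0 and 2 to 6 at day 14. The log2 differences at day 0 then ran from -0.00323 to 0.161 for Malat1, -0.152 to 0.647 for Neat1, -0.0453 to 0.0512 for Gas5, -0.146 to 0.142 for Tug1, -0.309 to 0.0386 for Pvt1 and -0.107 to 0.140 for Snhg6. At day 14 they ran from -0.0903 to 0.0401 for Firre, -0.00638 to 0.0830 for Gas5 and -0.0801 to 0.274 for Tug1. For the difference between the time courses they ran from -0.0125 to 0.0812 for Gas5 and -0.0853 to 0.270 for Tug1. Allele ratios ran from -0.185 to 0.0597 for Firre in that difference, and at day 14 between genotypes from -0.385 to 1.08 for Gas5 and -3.09 to 2.16 for Snhg6, both settings of which were added after the data were seen. Depth limits Miat in 6A at day 14 (20 and 27 counts), the CAST reads of Snhg6, and those of Gas5 at day 14.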
